A study of Mus musculus with 4 samples.

Results

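The 9 genes described here encode the colony-stimulating factors and the chains of their receptors, and they were taken by gene symbol from the 24346 symbols of the deposited expression files. They comprise 4 ligands (*Csf1*, *Csf2*, *Csf3* and *Il34*) and 5 receptor chains (*Csf1r*, *Csf2ra*, *Csf2rb*, *Csf2rb2* and *Csf3r*), and all 9 were among the 15896 genes tested. Dorsal skin of male C57BL/6 mice was measured by RNA sequencing in 4 libraries, 2 from the Cont-IMQ group and 2 from the 7KC-IMQ group. Mice of the Cont-IMQ group received the NASH diet, which is rich in fat, cholesterol and sucrose and contains bile salt, from the age of 8 weeks for 3 weeks, and then 5% imiquimod (IMQ) cream for 1 day. The 7KC-IMQ group was handled alike, with 7-ketocholesterol (7KC), an oxidized cholesterol, added to the same diet. Both groups therefore shared the NASH diet and IMQ, a TLR7 ligand that evokes psoriasis-like dermatitis, and no skin without IMQ is part of the comparison. The comparison asks whether 7KC in the diet altered the expression of these factors at the start of the dermatitis.

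Colony-stimulating factors are cytokines that drive the production, survival and activation of myeloid cells. *Csf1* (M-CSF) and *Il34* (IL-34) are 2 ligands of a single receptor tyrosine kinase, CSF1R, on monocytes, macrophages and Langerhans cells, and IL-34 from keratinocytes is known for maintaining Langerhans cells in the epidermis. *Csf2* (GM-CSF) acts through an alpha chain of its own (*Csf2ra*) and the common beta chain (*Csf2rb*), which IL-3 and IL-5 receptors also use. The mouse has another beta chain, *Csf2rb2*, that serves IL-3 only. *Csf3* (G-CSF) acts through *Csf3r* and is the main growth factor of neutrophils. *Csf2* and *Csf3* are induced by cytokines such as IL-1, IL-17 and TNF-α, whereas *Csf1* and *Il34* are made constitutively in many tissues.

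*Csf2* and *Csf3* were the members that differed most between the groups, with mean levels 3.89-fold and 3.46-fold higher in the 7KC-IMQ group. The mean levels of the other 7 members in the 7KC-IMQ group were between 0.897 times (*Csf1r*) and 1.23 times (*Csf2rb*) those in the Cont-IMQ group. No member passed the test after adjustment. Levels are given in FPKM, a fragment count scaled to transcript length and to library size. Differences were tested on the log2(FPKM + 1) scale by limma with Benjamini-Hochberg adjustment over all 15896 genes. On that scale the fold of weakly expressed genes such as *Csf2* and *Csf3* appears smaller than it is in FPKM. Over all genes, 1 passed an adjusted p-value of 0.05 (0.00629%), so that the test with 2 libraries per group left nearly every gene below the threshold. With 2 libraries per group, the smallest two-sided p-value of an exact permutation test is 0.333, so none was used. Whether the 2 libraries of a group came from separate animals is not stated in the labels, and p-values measure only the spread between these libraries.

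The libraries were similar in depth, between an estimated 15030000 and 16330000 mapped reads. Median ratio factors between them lay between 1.001 and 1.002, and factors by the summed FPKM between 0.956 and 1.065. Keratinocyte and fibroblast markers were high in every library, with summed levels of at least 14896 and 2620 FPKM, and so were those of skeletal muscle (at least 5089 FPKM), which lies below the dermis of mouse back skin. Cont-IMQ replicate 2 stood apart in hair follicle markers, with a summed level of 1331 FPKM against 98.7 FPKM in Cont-IMQ replicate 1 and 379 and 333 FPKM in 7KC-IMQ skin.

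**Figure D1:**
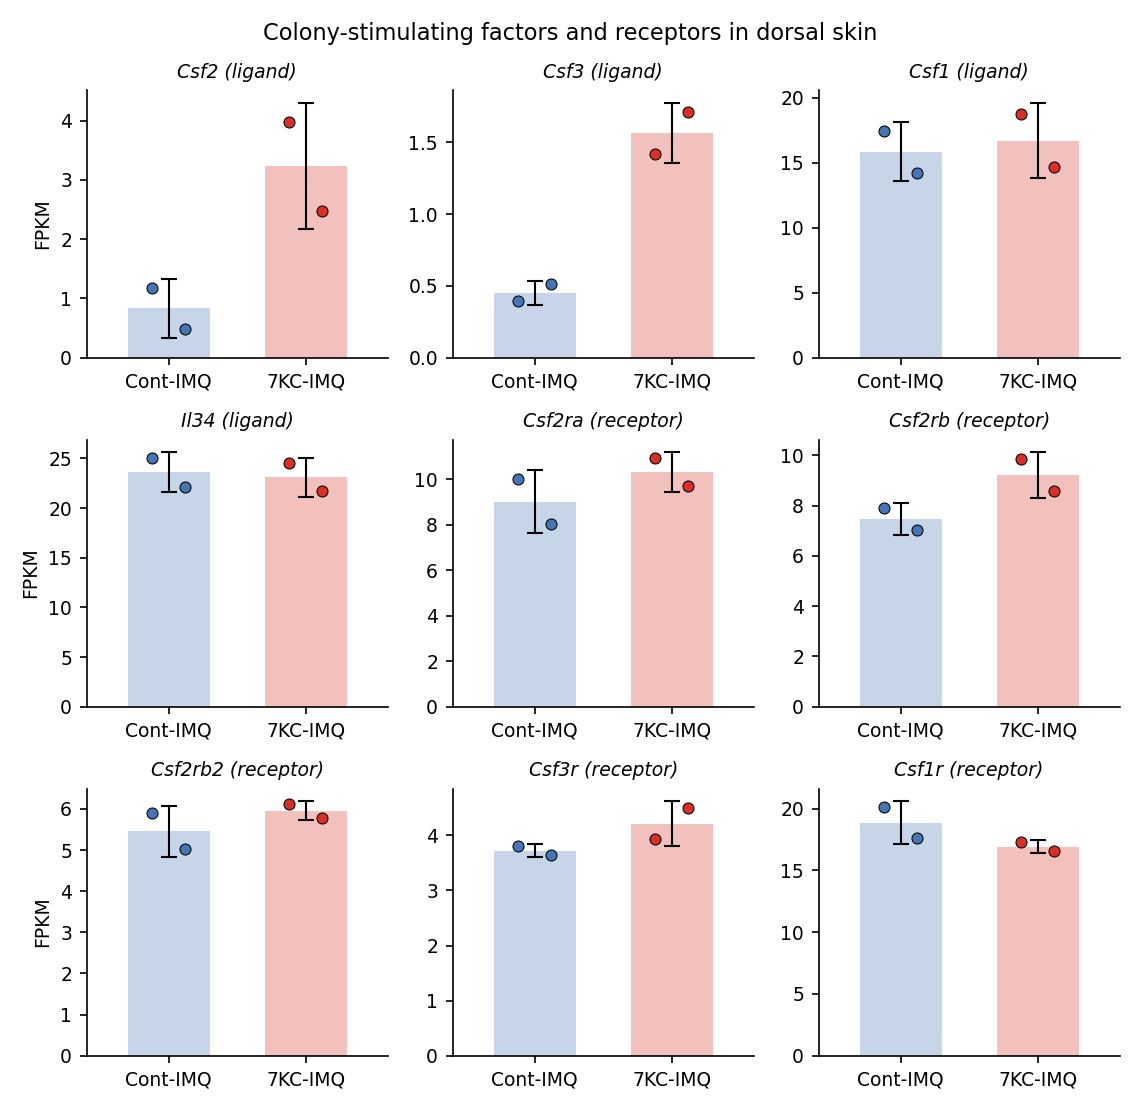
Level of each of the 9 genes in FPKM (vertical axes, each starting at 0) in the Cont-IMQ and 7KC-IMQ groups. Bars are means, error bars SD (n = 2), and points single libraries with replicate 1 on the left. *Csf2* and *Csf3* stand apart from the others by the distance between the groups, at 0.831 against 3.23 FPKM and 0.453 against 1.57 FPKM.

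*Csf2* encodes GM-CSF, a cytokine made by activated T cells, innate lymphoid cells and keratinocytes. It lies on chromosome 11 of GRCm38 (mm10) from 54247271 to 54249667 on the minus strand (ENSMUSG00000018916.5), with 1 annotated transcript. Its level was 1.18 FPKM in replicate 1 and 0.478 FPKM in replicate 2 of the Cont-IMQ group, and it was 3.98 FPKM in replicate 1 and 2.48 FPKM in replicate 2 of the 7KC-IMQ group. The groups did not overlap, and the lower 7KC-IMQ library was 2.10 times the higher Cont-IMQ library. The group levels were 0.831 ± 0.499 and 3.23 ± 1.06 FPKM (SD, n = 2), a log2 difference of 1.21 with a standard error of 0.27 and a 95% interval from 0.50 to 1.93 (limma, adjusted p = 0.354). Of the 15896 genes tested, *Csf2* held rank 65 by the size of the difference toward higher levels in the 7KC-IMQ group.

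*Csf3* encodes G-CSF, which keratinocytes, fibroblasts, endothelial cells and macrophages release on inflammatory stimulation. It lies on the same chromosome from 98701263 to 98703629 on the plus strand (ENSMUSG00000038067.2), also with 1 annotated transcript. *Csf3* had 0.394 and 0.511 FPKM in Cont-IMQ skin and 1.42 and 1.71 FPKM in 7KC-IMQ skin. Here too the groups were apart, with the lower 7KC-IMQ library at 2.78 times the higher Cont-IMQ library. The group levels were 0.453 ± 0.0832 and 1.57 ± 0.206 FPKM (SD, n = 2), a log2 difference of 0.82 with a standard error of 0.12 and a 95% interval from 0.50 to 1.14 (limma, adjusted p = 0.352). Its rank in the same order was 135.

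Both genes had low levels that rest on few reads. From the estimated depth, the *Csf2* values of Cont-IMQ replicates 1 and 2 correspond to about 11 reads (exact Poisson 95% interval 5.49 to 19.7) and 4 reads (1.09 to 10.2). Those of 7KC-IMQ replicates 1 and 2 correspond to about 39 reads (27.7 to 53.3) and 22 reads (13.8 to 33.3). For *Csf3*, the estimates were 7 reads (2.81 to 14.4) and 9 reads (4.12 to 17.1) in the Cont-IMQ group, against 28 reads (18.6 to 40.5) and 31 reads (21.1 to 44.0) in the 7KC-IMQ group. In *Csf3*, the intervals of the Cont-IMQ libraries lay below those of both 7KC-IMQ libraries. In *Csf2*, the interval of Cont-IMQ replicate 1 reached into that of 7KC-IMQ replicate 2. These intervals cover counting error only. With a pseudocount of 0.1 in place of 1, the log2 difference was 1.91 for *Csf2* and 1.59 for *Csf3*.

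The genes share a sequence feature that had no part in how the members were chosen. Messenger RNAs of inducible cytokines often carry repeats of the pentamer ATTTA (in DNA letters) in the 3' untranslated region, which mark them for rapid decay through proteins such as ZFP36. The stretch of 30 bases with the most pentamers is shown for *Csf2* and *Csf3* in the sense orientation, 5' to 3', with the pentamers in capitals, as read from GENCODE release M21. That of *Csf2* lies in the last of its exons (exon 4, chr11:54247324-54247353, minus strand), and that of *Csf3* in exon 5 (chr11:98702995-98703024, plus strand).
Csf2: aaatATTTATTTATTTATTTATTTAttttt
Csf3: tatctctATTTAatATTTAtgcatATTTAa
The *Csf2* stretch holds 5 overlapping pentamers and the *Csf3* stretch 3. In their whole 3' untranslated regions, *Csf2* has 9 pentamers in 317 bases and *Csf3* has 6 in 669 bases. Among the other members, *Csf1* has 4 pentamers in 2111 bases with at most 2 in any 30 bases, *Csf1r* has 3 in 1669 bases and *Il34* 1 in 605 bases. *Csf2ra*, *Csf2rb*, *Csf2rb2* and *Csf3r* have 0. Of the 14468 genes tested that have an annotated 3' untranslated region, 2.32% hold at least 3 pentamers within 30 bases and 0.207% hold at least 5. A match to these letters is a description of the sequence and not of its decay.

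The other 2 ligands were expressed at far higher levels than *Csf2* and *Csf3* and did not separate the groups. *Il34* (chromosome 8, 110741829 to 110805924), which encodes IL-34, had 25.03 and 22.16 FPKM in Cont-IMQ skin and 24.5 and 21.7 FPKM in 7KC-IMQ skin. The groups overlapped, and the log2 difference was -0.03 with a 95% interval from -0.31 to 0.25 (limma, adjusted p = 0.929). *Csf1* (chromosome 3, 107741048 to 107760469), which encodes M-CSF, had 17.4 and 14.2 FPKM in Cont-IMQ skin and 18.7 and 14.7 FPKM in 7KC-IMQ skin. In both groups replicate 1 was the higher, and the log2 difference was 0.07 with a 95% interval from -0.36 to 0.49 (limma, adjusted p = 0.888). *Csf2* and *Csf3* together made up 3.58% and 2.65% of the summed FPKM of the 4 ligands in the Cont-IMQ libraries and 11.1% and 10.3% in the 7KC-IMQ libraries. *Csf1* and *Il34* thus held the larger part of the ligand transcripts in every library.

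Among the receptor chains, *Csf2rb*, the common beta chain of GM-CSF, IL-3 and IL-5 receptors, had the largest difference at the settings used here. It was exceeded in size by *Csf1r* with libraries scaled to the same sum (-0.22 against 0.20 on the log2 scale) and without Cont-IMQ replicate 2 (-0.23 against 0.19), and by *Csf3r* without 7KC-IMQ replicate 1 (0.22 against 0.18). *Csf2rb* (chromosome 15, 78325752 to 78353847) had 7.92 and 7.03 FPKM in Cont-IMQ skin and 9.86 and 8.57 FPKM in 7KC-IMQ skin. The groups did not overlap, but the log2 difference of 0.27 had a 95% interval from -0.04 to 0.58 that includes 0 (limma, adjusted p = 0.433). *Csf2rb2* (78282507 to 78305721 on the same chromosome), the IL-3 beta chain, had 5.90 and 5.02 FPKM in Cont-IMQ skin and 6.12 and 5.79 FPKM in 7KC-IMQ skin. Its groups overlapped, with a log2 difference of 0.11 and a 95% interval from -0.20 to 0.42 (limma, adjusted p = 0.723).

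*Csf2rb* and *Csf2rb2* are neighboring, closely related genes on opposite strands, so reads of 75 bases can be assigned to either in parts of their sequence. Of the 75-base windows of their transcripts, 7.15% in *Csf2rb* and 10.6% in *Csf2rb2* occur in the other gene. Their longest identical run is 242 bases of coding sequence, in exon 15 of *Csf2rb* (chr15:78348577-78348818, plus strand) and exon 14 of *Csf2rb2* (chr15:78284630-78284871, minus strand). It is printed because a read from within it belongs to both genes.
Csf2rb and Csf2rb2: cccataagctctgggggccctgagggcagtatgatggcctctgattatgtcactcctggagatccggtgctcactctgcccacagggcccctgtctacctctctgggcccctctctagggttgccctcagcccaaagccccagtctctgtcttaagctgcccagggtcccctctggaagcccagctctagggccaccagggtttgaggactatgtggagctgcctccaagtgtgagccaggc
Summed over both genes, the beta chains had 13.8 and 12.05 FPKM in Cont-IMQ skin and 16.0 and 14.4 FPKM in 7KC-IMQ skin, a log2 difference of 0.22 that was not tested. *Csf2rb2* held 42.7% and 41.7% of that sum in the Cont-IMQ libraries and 38.3% and 40.3% in the 7KC-IMQ libraries. No 75-base window of *Csf1*, *Csf2*, *Csf3*, *Il34*, *Csf1r* or *Csf2ra* occurs in another annotated gene, and in *Csf3r* 2.95% do.

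*Csf2ra*, the alpha chain that gives the GM-CSF receptor its specificity, lies on chromosome 19 from 61223957 to 61228429. It had 10.0 and 8.03 FPKM in Cont-IMQ skin and 10.9 and 9.70 FPKM in 7KC-IMQ skin, and the groups overlapped. The log2 difference was 0.18 with a 95% interval from -0.18 to 0.54 (limma, adjusted p = 0.613). The ratio of *Csf2* to *Csf2ra* in FPKM was 0.118 and 0.0596 in the Cont-IMQ libraries and 0.364 and 0.256 in the 7KC-IMQ libraries, so the ligand lay below its receptor chain in each library.

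*Csf3r*, the receptor of G-CSF, is carried mainly by neutrophils and their precursors and lies on chromosome 4 from 126024550 to 126044440. It had 3.80 and 3.64 FPKM in Cont-IMQ skin and 3.93 and 4.50 FPKM in 7KC-IMQ skin. The groups did not overlap, although the gap between the nearest libraries was small, and the log2 difference was 0.14 with a 95% interval from -0.16 to 0.44 (limma, adjusted p = 0.634). The ratio of *Csf3* to *Csf3r* was 0.104 and 0.140 in the Cont-IMQ libraries and 0.362 and 0.380 in the 7KC-IMQ libraries.

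*Csf1r*, the receptor of both M-CSF and IL-34, lies on chromosome 18 from 61100598 to 61132149 and was the only member that was lower in the 7KC-IMQ group without overlap. It had 20.1 and 17.7 FPKM in Cont-IMQ skin and 17.3 and 16.6 FPKM in 7KC-IMQ skin. The log2 difference was -0.15 with a 95% interval from -0.40 to 0.11 (limma, adjusted p = 0.572).

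Altogether, 4 members (*Csf2*, *Csf3*, *Csf2rb* and *Csf3r*) were higher and 1 (*Csf1r*) was lower in the 7KC-IMQ group without overlap between the groups, and 4 overlapped. Of all genes tested, 23.9% were higher and 22.9% lower in this way, and the 95% intervals of *Csf2rb*, *Csf3r* and *Csf1r* included 0. Before adjustment, *Csf2* and *Csf3* were the 2 members called by limma at a threshold of 0.05, both as higher. The same threshold called 7.5% of all genes higher and 5.47% lower, and 638 higher and 1230 lower with libraries scaled to the same sum, against 1192 and 869 here. By their means alone, 7 of the 9 members were higher in the 7KC-IMQ group, where 48.7% of all genes were. Without Cont-IMQ replicate 2, which stood apart in hair follicle markers, the log2 difference was 0.93 for *Csf2* and 0.88 for *Csf3*. Without Cont-IMQ replicate 1 or without 7KC-IMQ replicate 2, 7 members were higher without overlap in place of 4, but with 2 libraries against 1 the groups overlap less often by construction, and 38.5% and 33.3% of all genes were then higher in this way.

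**Figure D2:**
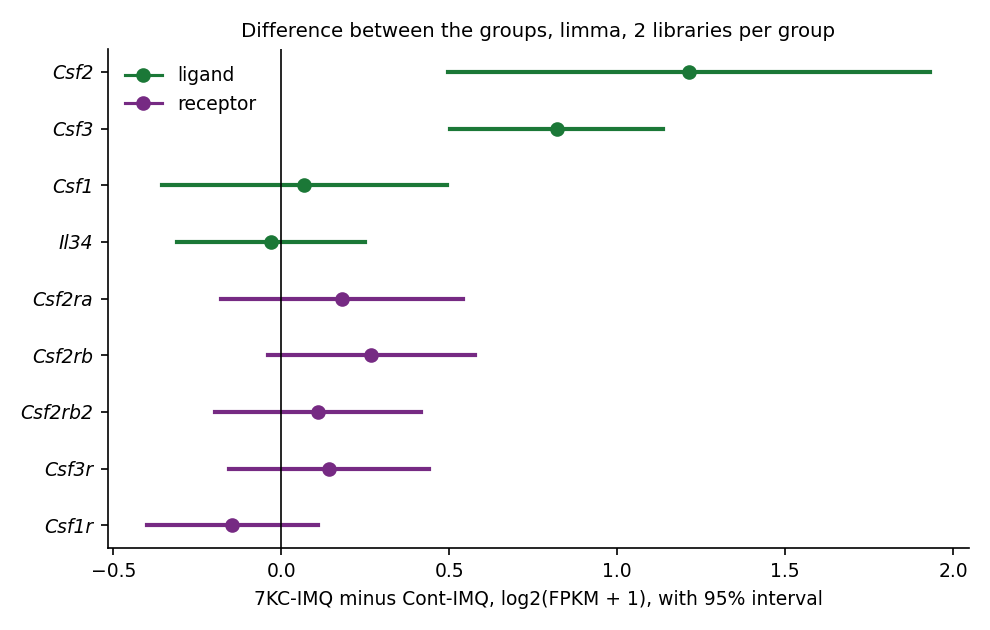
Difference between the groups (7KC-IMQ minus Cont-IMQ) for each gene on the log2(FPKM + 1) scale (horizontal axis), with ligands in green and receptor chains in purple. Points are limma estimates and lines their 95% intervals. The intervals of *Csf2* (0.50 to 1.93) and *Csf3* (0.50 to 1.14) lie above 0, and those of the other 7 genes include 0.

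By mean level over the 4 libraries, the order was *Il34* (23.3 FPKM), *Csf1r* (17.9), *Csf1* (16.3), *Csf2ra* (9.67), *Csf2rb* (8.35), *Csf2rb2* (5.71), *Csf3r* (3.97), *Csf2* (2.03) and *Csf3* (1.01). Neighbors in this order whose libraries overlapped in level were *Csf1r* with *Csf1*, *Csf2ra* with *Csf2rb*, *Csf3r* with *Csf2* and *Csf2* with *Csf3*. *Csf2* reached the level of *Csf3r* in 7KC-IMQ replicate 1 alone, where *Csf2* had 3.98 FPKM and *Csf3r* 3.93 FPKM. Among all genes tested, *Il34* exceeded 75.3% of genes in mean level, *Csf2* 25.3% and *Csf3* 17.6%.

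The genes with the most similar pattern were found by the root-mean-square distance between log2(FPKM + 1) values centered on each gene's mean, over the 4 libraries and among 13101 genes with a mean of at least 1 FPKM. Only *Csf2* and *Csf3* varied enough for this comparison (a range of at least 0.5 on the log2 scale). Nearest to *Csf2* were *Slc26a4*, an anion transporter (distance 0.120), *Ccl19*, a chemokine that attracts CCR7-bearing lymphocytes and dendritic cells (0.184), and *Timp1*, an inhibitor of metalloproteinases (0.197). Nearest to *Csf3* were *Acot5*, an acyl-CoA thioesterase (distance 0.0573), *Slc29a2*, a nucleoside transporter (0.0575), and *Plet1*, an epithelial surface protein (0.0600). With 4 libraries, these distances only describe how close the centered values lie, and the order of the libraries can differ. *Timp1* had 40.4 FPKM in replicate 1 and 40.8 FPKM in replicate 2 of the 7KC-IMQ group, where *Csf2* was higher in replicate 1. *Ccl19* had 80.1 and 61.7 FPKM in Cont-IMQ skin and 147 and 123 FPKM in 7KC-IMQ skin, with replicate 1 the higher in both groups as in *Csf2*.

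Most of the cytokines listed here as acting before the colony-stimulating factors stood higher in the 7KC-IMQ group, as *Csf2* and *Csf3* did. The list was compiled with earlier results of these data known. The study had already reported several of these cytokines as raised in such skin by quantitative PCR. They include *Tnf*, *Il1b*, *Il17a*, *Il17c*, *Il17f*, *Il22* and *Il23a*. The share that stood higher is therefore not independent of how the list was chosen. Of 14 cytokines that can induce *Csf2* or *Csf3* in skin, 10 (71.4%) were higher and 1 (*Il18*) lower without overlap. Of all genes tested, 23.9% were higher and 22.9% lower in this way. The median log2 difference of the list was 0.79 against -0.01 over all genes tested. None of the 14 passed the adjusted threshold, where the smallest adjusted p-value in limma was 0.265. *Il23a*, the p19 subunit of IL-23, which acts on T cells that produce GM-CSF, had 2.15 and 1.82 FPKM against 7.92 and 8.13 FPKM. *Il17f* had 1.34 and 1.02 FPKM against 5.08 and 6.33 FPKM. *Il17c*, an IL-17 family cytokine of keratinocytes, had 8.53 and 8.47 FPKM against 18.4 and 18.2 FPKM, so that the libraries of each group lay close together. *Il22*, also among the 10, was listed at 0 in Cont-IMQ replicate 2, which can be a failed estimate. Its mean in Cont-IMQ skin was only 0.0741 FPKM, against 0.878 FPKM after 7KC. *Il22* thus reached the 0.1 FPKM needed for testing only through the 7KC-IMQ libraries. Its place among the 10 was therefore not independent of the filter.

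Transcription factors that act on the ligand genes went both ways. Of 17, 7 (41.2%) were higher and 3 lower without overlap, against 23.9% and 22.9% of all genes tested. The median log2 difference was 0.09, and none passed the adjusted threshold. *Cebpb*, a C/EBP factor induced by inflammatory cytokines, had 112 and 117 FPKM in Cont-IMQ skin and 134 and 204 FPKM in 7KC-IMQ skin. *Cebpd* had 58.2 and 82.5 FPKM against 89.9 and 104 FPKM. *Fos*, a subunit of AP-1, went the opposite way, with 496 and 546 FPKM against 97.4 and 277 FPKM. The other members of the list that were higher without overlap were *Nfkb1*, *Nfkb2*, *Rel*, *Rela* and *Runx1*, 4 of which encode NF-κB subunits. *Relb*, which also encodes an NF-κB subunit, overlapped, with a log2 difference of -0.12. Besides *Fos*, *Ets1* and *Nfatc1* were lower without overlap.

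Factors that decide how long such mRNAs last also went both ways. Of 10, 5 (50.0%) were higher and 4 lower without overlap, against 23.9% and 22.9% of all genes tested, and none passed the adjusted threshold. *Zfp36*, which encodes tristetraprolin and binds AU-rich repeats to promote decay, had 269 and 244 FPKM in Cont-IMQ skin and 161 and 215 FPKM in 7KC-IMQ skin (log2 difference -0.46, limma, adjusted p = 0.372). *Zc3h12a*, which encodes the endonuclease Regnase-1, had 93.6 and 82.4 FPKM against 126 and 160 FPKM (log2 difference 0.68, limma, adjusted p = 0.352). *Hnrnpd*, which encodes the AU-rich element binding protein AUF1, had 18.2 and 16.7 FPKM against 22.4 and 25.1 FPKM. Of the other factors of decay or stability in the list, *Zfp36l2*, *Rc3h1* and *Rc3h2* were lower without overlap, and *Khsrp*, *Elavl1* and *Arid5a* higher.

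Genes that act behind the receptors went both ways. Of 22 signal transducers, 5 (22.7%) were higher and 7 lower without overlap. The share higher was near the 23.9% of all genes tested, of which 22.9% were lower. The median log2 difference was -0.02, and none passed the adjusted threshold. *Stat3*, which G-CSF and many other cytokines activate, had 81.9 and 68.5 FPKM against 98.1 and 103 FPKM. *Plcg2*, a phospholipase, had 11.0 and 9.51 FPKM against 12.11 and 12.02 FPKM. *Jak2*, the kinase bound to the beta chain, was also higher without overlap, while *Stat5b* was lower and *Stat5a* overlapped.

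Of 12 STAT-induced targets and feedback inhibitors, 2 (16.7%) were higher and 1 lower without overlap, against 23.9% and 22.9% of all genes tested. The median log2 difference was 0.02, and none passed the adjusted threshold. *Socs1*, an inhibitor of JAK kinases, had 9.71 and 5.94 FPKM against 13.8 and 14.0 FPKM. *Osm*, the other gene that was higher, encodes oncostatin M, which GM-CSF induces in myeloid cells, and had 0.420 and 0.193 FPKM against 1.18 and 0.968 FPKM. *Cish*, a feedback inhibitor induced by STAT5, had 19.7 and 15.6 FPKM against 15.6 and 14.3 FPKM, and *Socs2* 7.57 and 5.58 FPKM against 5.57 and 5.46 FPKM. The targets *Pim1* and *Socs3* overlapped, with log2 differences of 0.00 and 0.03.

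**Figure D3:**
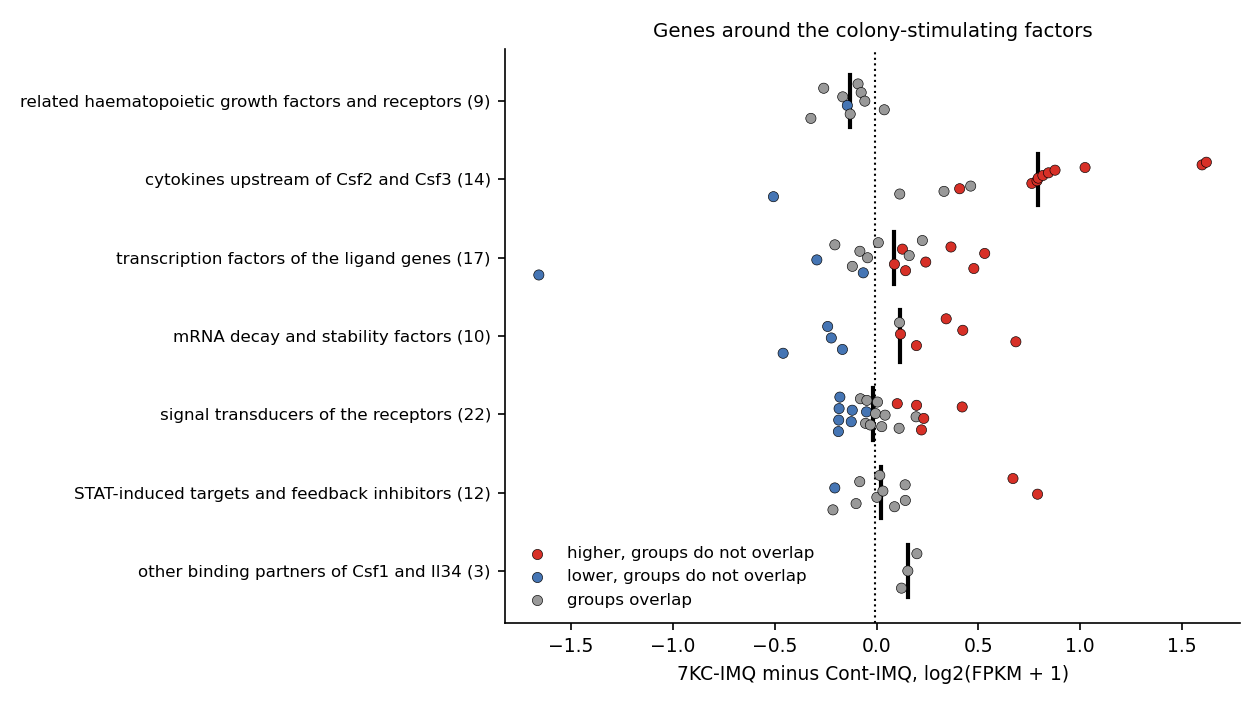
Difference between the groups on the log2(FPKM + 1) scale (horizontal axis) for each tested gene of 7 lists, with the number of genes in brackets. Points are genes, colored by whether the groups overlapped, thick bars are list medians and the dotted line is the median of all genes. The cytokines upstream of *Csf2* and *Csf3* have a median of 0.79, and the other medians lie between -0.13 and 0.15.

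Related growth factors of blood cells did not follow *Csf2* and *Csf3*. Of 14 such ligands and receptors, 9 were expressed highly enough to be tested. Of these, 8 had a lower and 1 a higher mean in the 7KC-IMQ group, with 1 (*Il3ra*) lower without overlap. Over all genes tested, 48.7% had a higher mean in that group, and 22.9% were lower without overlap. *Il3* and *Epo* were listed at 0 in every library, and *Il5* and *Il5ra* were at most 0.0785 FPKM. A value of 0 can be a failed estimate, so the levels of *Il3* and *Il5*, the other ligands that use the beta chain, cannot be read from these values. *Il3ra*, the IL-3 receptor alpha chain, had 8.11 and 8.91 FPKM against 7.27 and 7.95 FPKM. *Kitl* (stem cell factor) had 4.23 and 7.36 FPKM against 4.602 and 3.993 FPKM, and its receptor *Kit* 1.42 and 2.35 FPKM against 1.46 and 1.30 FPKM. Both were highest in Cont-IMQ replicate 2, the library with the highest hair follicle markers, whose part in these values was not tested. The other binding partners of M-CSF and IL-34 overlapped between the groups, with 238 and 279 FPKM against 273 and 322 FPKM for *Sdc1* (syndecan-1), 1.42 and 1.55 FPKM against 1.27 and 2.35 FPKM for *Ptprz1*, and 112 and 134 FPKM against 140 and 128 FPKM for *Bgn* (biglycan).

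In bulk tissue, fewer cells of a type and less RNA per cell cannot be told apart, and so marker levels of the cells that carry the receptors or make the ligands are given beside them. Neutrophil markers had summed levels of 147 and 191 FPKM in Cont-IMQ skin and 159 and 137 FPKM in 7KC-IMQ skin, and overlapped. *Il1r2* alone held 102 and 127 FPKM of these sums in Cont-IMQ skin and 100 and 76.6 FPKM in 7KC-IMQ skin. The sums thus mostly follow this 1 gene. Of 13 neutrophil markers tested, 6 (46.2%) were higher and 3 lower without overlap. Of all genes tested, with which each marker list here compares, 23.9% were higher and 22.9% lower in this way. *Cxcr2*, the chemokine receptor of neutrophils, was among the higher with 13.4 and 15.05 FPKM against 20.2 and 23.0 FPKM, and *Fpr1*, *Il1r2* and *Mmp9* were the lower. The granule genes of immature neutrophils *Mpo*, *Elane*, *Ltf*, *Camp* and *Ngp* were listed at 0 in at least 1 library and reached at most 0.740 FPKM. Of these, *Camp* was among the 6 higher, with 0 in Cont-IMQ replicate 2. *Trem1*, also among the 6, had a mean of 0.0922 FPKM in Cont-IMQ and 0.407 FPKM in 7KC-IMQ skin. It therefore passed the filter of 0.1 FPKM only through the 7KC-IMQ group. The part of neutrophils in the values of *Csf3r* was not tested.

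Macrophage and monocyte markers summed to 1030 and 1251 FPKM in Cont-IMQ skin and 987 and 1051 FPKM in 7KC-IMQ skin. Of 15, 10 had a lower mean in the 7KC-IMQ group, *Cd68* and *Lyz2* were lower without overlap and *Cd14* was higher. *Lyz2* (lysozyme) had 210 and 233 FPKM against 191 and 175 FPKM. *Csf1r* had the same direction as these, and the part of macrophage number in it was not tested. Dendritic and Langerhans cell markers summed to 922 and 644 FPKM against 903 and 661 FPKM, with replicate 1 the higher in both groups, as in all 9 members except *Csf3* and *Csf3r*, and 1 of 12 was higher and 2 were lower without overlap.

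Among cells that can make the ligands, T cell and innate lymphoid cell markers had lower summed levels in the 7KC-IMQ group, at 63.4 and 46.8 FPKM against 79.9 and 67.6 FPKM, while *Csf2* was higher. Of 10 tested, 2 were higher (*Cd3d* and *Il2rb*) and 3 were lower without overlap, *Cd3e* and *Cd3g* among them. Endothelial markers were lower too, with summed levels of 44.3 and 42.4 FPKM against 53.1 and 58.6 FPKM, and 5 of 6 were lower without overlap. Keratinocyte markers summed to 22217 and 14896 FPKM in Cont-IMQ skin and 17345 and 19248 FPKM in 7KC-IMQ skin, and fibroblast markers to 3556 and 2620 FPKM against 3342 and 2945 FPKM, so both overlapped. Mast cell and eosinophil markers summed to 109 and 107 FPKM against 92.7 and 97.2 FPKM, and the eosinophil granule genes *Prg2* and *Epx* were listed at 0 in every library. Red blood cell markers summed to 27.0 and 7.13 FPKM against 6.78 and 25.6 FPKM, and their part in the results was not tested. Skeletal muscle markers summed to 6316 and 6262 FPKM against 5089 and 6065 FPKM. Adipocyte markers overlapped, at 221 and 331 FPKM against 352 and 299 FPKM.

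**Figure D4:**
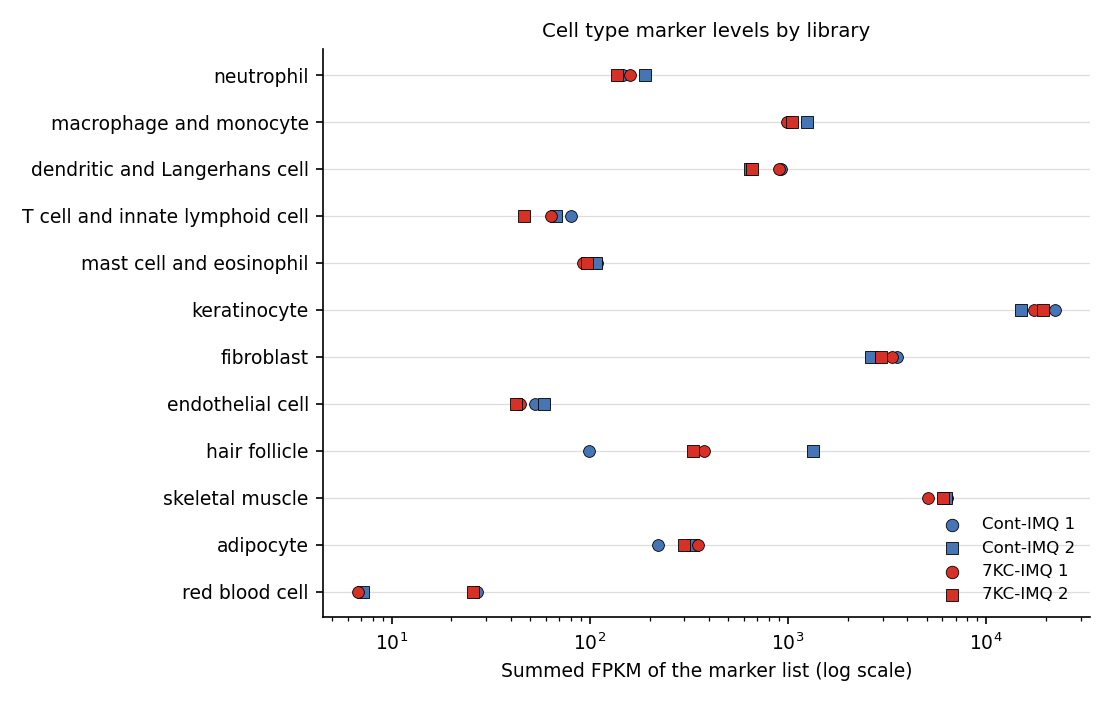
Summed FPKM of each marker list (horizontal axis, log scale) in the 4 libraries, with circles for replicate 1 and squares for replicate 2. Hair follicle markers spread widest, from 98.7 to 1331 FPKM, both ends being Cont-IMQ libraries, and endothelial markers were lower in both 7KC-IMQ libraries.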

How the data were processed

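RNA of dorsal skin was sequenced by the authors as 75-base single-end reads from stranded mRNA libraries. Reads were mapped to mm10, and per the submitters' processing notes TopHat2 2.1.1, Bowtie2 2.2.8, SAMtools 0.1.18 and Cuffdiff 2.2.1 were used, while the study's methods name other versions of some of these. The authors deposited FPKM per gene symbol, 1 file per library. The gene annotation and the handling of reads that map to several genes are not given in the sources used here. Between 7185 and 7388 symbols are listed at 0, and such a value can be a failed estimate.

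Values were transformed to log2(FPKM + 1), and genes with a mean of at least 0.1 FPKM were kept. Groups were compared by limma 3.58.1 (lmFit and eBayes with trend) in R 4.3.3. The procedure was tried on simulated data with independent noise, and changes were placed only in genes with a higher mean log2 level than *Csf3*. That trial therefore does not cover genes as low as *Csf3* or variation shared by many genes of a library. Mapped reads were estimated as the number that brought low values of single-transcript genes nearest to whole reads. At that number, 68.9% to 72.3% of 419 to 437 genes lay within 0.1 of a whole read, against 20% by chance. Coordinates, transcripts and 75-base windows came from GENCODE M21 (GRCm38).

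The members and the gene lists, compiled by hand, were chosen with earlier results of these data known. For 3 list genes the files use an older symbol, and *Ly6g* was not used here. Named genes were all members, the 3 largest differences of each pathway list among genes with a mean of at least 1 FPKM, and the 3 nearest patterns. Some list genes are not reported here by name. Genes named beyond these were chosen after their values were seen. Alternatives were another pseudocount, filter, scaling or variance model, the replicate number as a block, and leaving out each library.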

Additional observations from a re-analysis of the deposited data

How the results depend on the processing

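The direction of *Csf2*, *Csf3*, *Csf2ra*, *Csf2rb*, *Csf2rb2*, *Csf3r* and *Csf1r* was the same under each of 12 alternatives. The filters, the variance model and the replicate block leave the difference unchanged by construction. For members whose groups do not overlap, another pseudocount or a library left out cannot reverse the direction. No member passed an adjusted p-value of 0.05 under any of the 12 alternatives. Over these alternatives the adjusted p-value ranged from 0.295 to 0.967 for *Csf2* and from 0.277 to 0.967 for *Csf3*. When single libraries were left out, the log2 difference ranged from 0.932 to 1.495 for *Csf2*, from 0.74 to 0.90 for *Csf3*, from -0.10 to 0.24 for *Csf1* and from -0.11 to 0.054 for *Il34*. *Csf1* also changed sign with libraries scaled to the same sum (-0.0082). The number of genes past the threshold was 0 higher and 1 lower, 2 lower with a pseudocount of 0.1, and 0 to 2 higher and 1 to 7 lower with a library left out. The 7 lower were found without Cont-IMQ replicate 1, as were the 2 higher, and 5 lower without Cont-IMQ replicate 2. The number of members without overlap ranged from 4 to 7 higher and from 1 to 2 lower in that case, where 33.3% to 38.8% of all genes were higher and 33.5% to 39.1% lower without overlap. Before adjustment, 333 genes were higher and 282 lower at 0.05 without 7KC-IMQ replicate 2, and 678 higher and 459 lower without 7KC-IMQ replicate 1. With a library left out, 1 group has a single library, which is assumed to vary like the others. With the replicate number as a block, the log2 differences were the same (1.21 for *Csf2*, adjusted p = 0.394), and 0 genes passed as higher and 1 as lower. Libraries with the same number did not deviate together (r = 0.0651 across genes), so the numbers were not taken as pairs. Depth limits *Csf2* and *Csf3* most, with as few as 4 estimated reads in a library.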

Other observations

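AU-rich repeats like those of *Csf2* and *Csf3* occur in other genes of the skin. Of the 30 genes tested with at least 5 ATTTA pentamers within 30 bases of the 3' untranslated region, 13 (43.3%) stood higher after 7KC and 5 (16.7%) stood lower without overlap between the groups, with a median log2 difference of 0.13. Of the 336 genes with at least 3 pentamers, 29.5% were higher and 23.5% lower, with a median of 0.00. Among the 14468 genes with an annotated 3' untranslated region, 24.5% were higher and 23.0% lower. The cutoffs were chosen after the values of *Csf2* and *Csf3* were seen, both genes are in the counts to which they belong, and no test was made. *Csf2*, *Cxcl2*, *Tnf* and *Birc3* had the largest differences among those that stood higher.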
